A study of Mus musculus with 9 samples.

Results

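Mitogen-activated protein kinase (MAPK) phosphatases and Sprouty proteins are the feedback inhibitors of the ERK, JNK and p38 kinase pathways. Transcripts of 10 such genes, namely Dusp1, Dusp4, Dusp5, Dusp6, Dusp7, Dusp8, Dusp10, Dusp16, Spry2 and Spry4, were followed in mouse brown adipose tissue (BAT), out of 16937 genes listed in at least 1 of 3 deposited tables. The genes were chosen by name, with their levels and fold changes in all 3 comparisons between groups already known. All 10 were listed in each table. The levels and fold changes below therefore describe these genes, and a count of members past a threshold is not independent evidence that the family responded.

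RNA was sequenced from the BAT of 9 adult C57Bl/6J mice, 3 in each group, and each group held males and females. WT RT mice were wild-type animals kept at 23 °C, WT Cold mice were wild-type animals kept at 4 °C for 8 h, and GCN2 KO Cold mice lacked GCN2 in the whole body and were kept at 4 °C for 8 h. All had 5 days to acclimate. GCN2 (gene Eif2ak4) is a kinase that senses amino acid shortage, and no GCN2 KO group at 23 °C was part of the tables, so a difference between genotypes in the cold cannot be told apart from one already present at 23 °C. Letters A, B and C name the libraries of a group, ordered by library code, and a code names neither a mouse nor its sex. Library codes of WT RT begin with other letters than those of the cold groups, and a difference in handling between these sets of libraries cannot be told apart from the effect of temperature.

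The libraries held from 27058799 to 30768064 reads on listed genes. Levels are given as normalised read counts, here the recovered reads of a library divided by a size factor set over all 9 libraries. The 3 tables had been normalized separately, so each test was made within a table. Eif2ak4 had 181, 238 and 245 normalised read counts in WT Cold libraries A, B and C. The libraries labelled GCN2 KO Cold had 367, 396 and 370, so the targeted transcript was not lower there but higher, without overlap. WT RT libraries A, B and C had 293, 333 and 368. Between the cold groups the log2 fold change of Eif2ak4 was 0.78 ± 0.15 (SE, n = 3 per group). Its adjusted p was 0.0932 with limma, 0.0914 with edgeR and 0.0028 with DESeq2. In WT Cold against WT RT it was -0.59 (limma adjusted p = 0.0294). The counts cover all exons of the gene together, also those outside a deleted part, and the libraries are called by their label below. For 1 of the 3 GCN2 KO Cold samples the labels conflict, since its title names GCN2 KO and WT, and its group was taken from the genotype field. In bulk tissue, fewer cells of a type and less RNA per cell cannot be told apart. Markers of brown adipocytes were present in every library (8 genes), with a summed level of 249704 to 297872 in WT RT, 433776 to 464748 in WT Cold and 536832 to 558445 in GCN2 KO Cold. The summed level of 10 skeletal muscle markers ranged from 59713 to 94493 in WT animals and from 8077 to 37493 in GCN2 KO Cold. Leukocyte markers (9 genes) summed to between 10604 and 15767 in WT RT, 6256 and 8814 in WT Cold, and 4874 and 7981 in GCN2 KO Cold. Endothelial markers (8 genes) summed to between 17355 and 20096 in WT RT, 21571 and 25516 in WT Cold, and 19124 and 23549 in GCN2 KO Cold, and the 7 fibroblast and preadipocyte markers to between 29219 and 33962, 23471 and 26263, and 16941 and 21869. The part of these markers in the changes of the members was not tested. Red blood cell markers (5 genes) summed to between 6860 and 9355 in WT RT, 16818 and 65322 in WT Cold, and 33902 and 64235 in GCN2 KO Cold.

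A MAPK is active when a threonine and a tyrosine of its activation loop carry phosphate, and a MAPK phosphatase removes both. DUSP1, DUSP4 and DUSP5 act in the nucleus and are made on demand after stimulation, DUSP6 and DUSP7 hold back ERK in the cytoplasm, and DUSP8, DUSP10 and DUSP16 prefer JNK and p38. Sprouty proteins act further upstream, between receptor tyrosine kinases and Ras-ERK signalling, and are themselves induced by ERK. In BAT, noradrenaline from sympathetic nerves raises cAMP in brown adipocytes, which activates protein kinase A, CREB and p38, and p38 contributes to the induction of Ucp1 and Ppargc1a.

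The promoters of the members that held a full cAMP response element (CRE) or serum response element are shown because these are the elements through which cAMP-CREB and ERK-SRF signals reach a gene. RefSeq windows on GRCm38.p6, from 250 bases before the start site to 50 after it, were matched for 8 of the 10 genes. Dusp4 and Spry4 were not searched, so nothing is said of motifs in their promoters. Both strands were searched for the CRE (TGACGTCA), its core of 5 letters (TGACG, which is also contained in the CRE), the AP-1 site (TGANTCA) and the core of the serum response element. A full CRE was found in the windows of Dusp1 and Dusp8, 2 of 8 members, and in 1.79% of 32851 windows of the same length. The serum response element was found in Dusp5 alone among the 8, against 1.63% of all windows, and the core of 5 letters in 4 members (Dusp1, Dusp5, Dusp8 and Dusp16), against 20.8%. No AP-1 site was found in a member's window, against 7.81% of all windows. The 3 stretches below run 5′ to 3′ on the strand of the gene and leave out bases that GENCODE annotates as exons of the gene. They lie at chr17:26508520-26508722 (minus strand, Dusp1), chr7:142095285-142095534 (minus strand, Dusp8) and chr19:53528895-53529108 (plus strand, Dusp5). Capitals mark the CRE in Dusp1 and Dusp8 and the serum response elements in Dusp5. The CRE of Dusp1 began 143 bases before the start site, those of Dusp8 began 107 and 63 bases before it, and the pair of abutting serum response elements of Dusp5 began 82 and 72 bases before it. Start sites are those of RefSeq. The last bases of the window, after the start site, occurred in a GENCODE transcript of the gene for Dusp1 and Dusp5. Those of Dusp8 did not, so its distances rest on the RefSeq start site alone. The GENCODE spans of Dusp1 and Dusp8 given below begin further upstream, so their stretches lie inside those spans, outside the annotated exons of the gene.
Dusp1: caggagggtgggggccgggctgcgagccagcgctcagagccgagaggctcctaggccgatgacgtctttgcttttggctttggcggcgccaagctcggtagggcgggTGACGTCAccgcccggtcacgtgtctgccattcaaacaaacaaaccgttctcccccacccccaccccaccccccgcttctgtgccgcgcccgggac
Dusp8: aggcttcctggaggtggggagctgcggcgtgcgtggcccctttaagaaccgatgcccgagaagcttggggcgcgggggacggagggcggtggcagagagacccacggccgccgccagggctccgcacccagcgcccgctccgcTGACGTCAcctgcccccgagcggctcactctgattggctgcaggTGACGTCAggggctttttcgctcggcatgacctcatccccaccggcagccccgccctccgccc
Dusp5: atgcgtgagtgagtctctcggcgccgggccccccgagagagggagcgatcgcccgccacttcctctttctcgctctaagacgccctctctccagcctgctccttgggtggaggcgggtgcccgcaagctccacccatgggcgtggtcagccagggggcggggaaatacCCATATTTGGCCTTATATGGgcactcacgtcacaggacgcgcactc
A match in letters is a description and does not show that a factor bound there. Their values by library are given with each gene below.

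Exposure of WT mice to cold was compared with WT RT to ask which of these inhibitors changed within 8 h. Spry4, Dusp1 and Dusp6 rose the most, to 5.01, 2.31 and 2.22 times the WT RT level, and Dusp16, Spry2 and Dusp4 rose by between 36.8 and 56.7%. Dusp7 fell by 25.9%. Dusp8, Dusp10 and Dusp5 did not pass the test. With limma on log2(normalised count + 1) and Benjamini-Hochberg adjustment over all 16679 genes, 3 of the 10 members were called, all higher, where 2.99% of all genes were called higher. Called means that the adjusted p was under 0.05 and that the log2 fold change was beyond 1 in either direction. At an adjusted p under 0.05 alone, 6 members were higher and 1 was lower, against 13.6% and 14.1% of all genes. The 3 libraries of each group did not overlap for 7 members higher in the cold and 1 lower, against 23.0% and 22.7% of all genes. The median log2 fold change of the members was 0.54, and that of all genes was 0.003. These shares stand beside a choice made on the same contrast, and nothing more is read from them. The plot of normalised read counts by library shows each member.

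**Figure D1:**
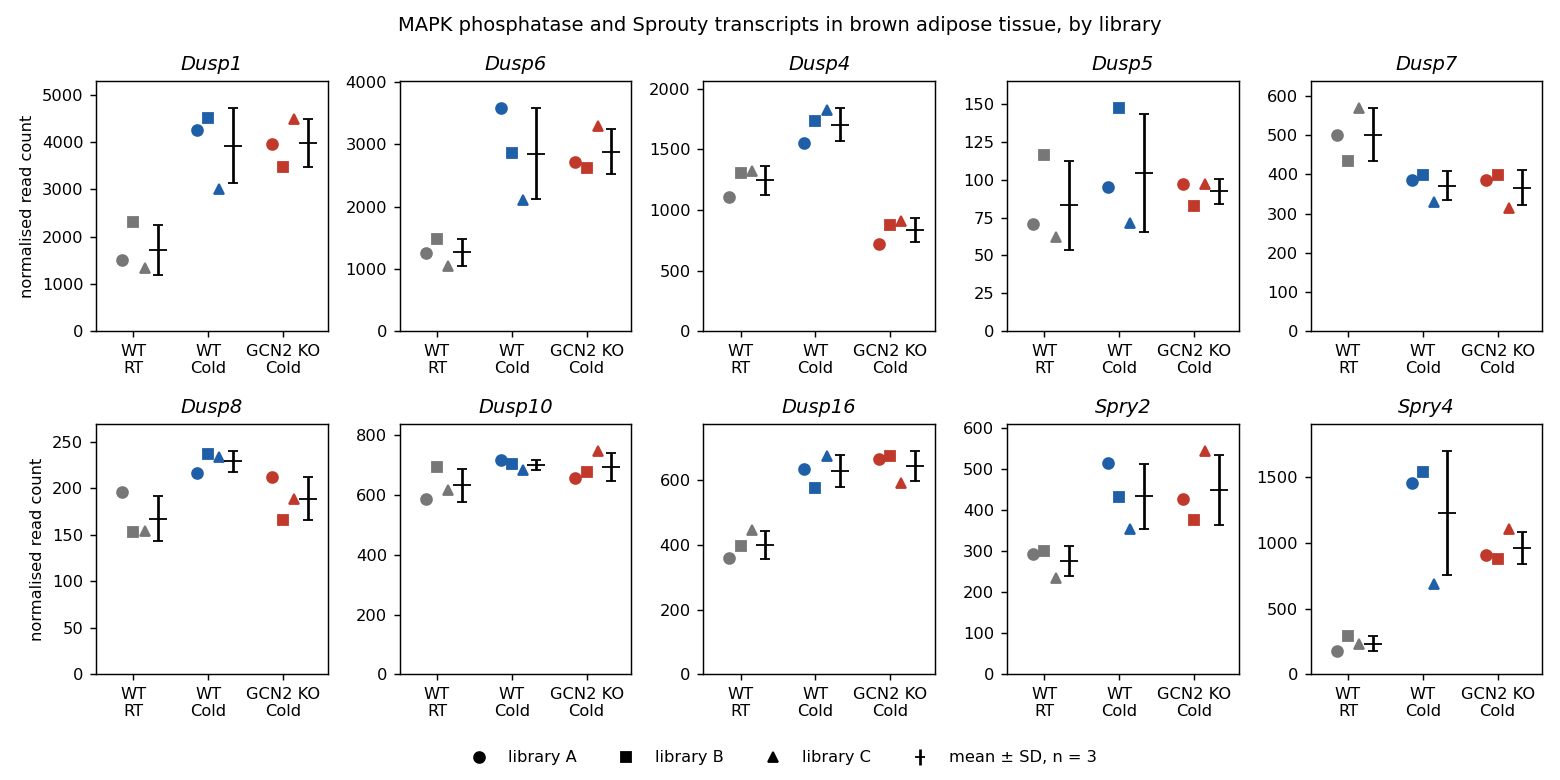
Normalised read count (y axis, linear from 0) of each of the 10 genes in the 9 BAT libraries, by group (x axis), with library A as a circle, B as a square and C as a triangle, and the mean ± SD of 3 libraries in black. Every cold library lies above every WT RT library for Dusp1, Dusp6, Dusp16, Spry2 and Spry4, and the 3 GCN2 KO Cold libraries lie below all others for Dusp4.

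Dusp1 (ENSMUSG00000024190; GRCm38 chromosome 17, 26505590 to 26562128, minus strand) encodes the nuclear phosphatase MKP-1, an immediate early gene product. It had 1509, 2317 and 1334 normalised read counts in WT RT libraries A, B and C, 4263, 4505 and 3018 in WT Cold, and 3963, 3474 and 4497 in GCN2 KO Cold. Every cold library was above every WT RT library, and the cold groups overlapped. The log2 fold change was 1.21 ± 0.22 (SE, n = 3 per group) in WT Cold against WT RT, 1.24 ± 0.19 in GCN2 KO Cold against WT RT and 0.03 ± 0.17 between the cold groups. An exon of Ergic1 overlaps Dusp1 on the opposite strand, and since no strand setting of the counting is given in the sources used here, reads of the overlap cannot be told apart.

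Dusp4 (ENSMUSG00000031530; GRCm38 chromosome 8, 34807297 to 34819894, plus strand), encoding the nuclear phosphatase MKP-2, was the member that differed between the cold groups. It had 1103, 1307 and 1321 normalised read counts in WT RT, 1550, 1737 and 1821 in WT Cold, and 719, 878 and 907 in GCN2 KO Cold. No group overlapped another, with WT Cold highest and GCN2 KO Cold lowest. The log2 fold change was 0.45 ± 0.10 (SE, n = 3 per group) in WT Cold against WT RT and -0.58 ± 0.12 in GCN2 KO Cold against WT RT. Without WT Cold library B, the adjusted p of the rise in WT Cold was 0.0559 with limma (0.0151 with all 6 libraries).

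Between the cold groups, Dusp4 was 51.1% lower in the GCN2 KO libraries, with a log2 fold change of -1.03 ± 0.12 (SE, n = 3 per group; 95% confidence interval -1.30 to -0.76). It was the 1 member of 10 called in this comparison, where 0.196% of all 16312 genes were called lower and 0.227% were lower at an adjusted p under 0.05 alone. Dusp4 stood at position 16 of all genes by p-value. The adjusted p was 0.0295 with limma, 0.0291 with edgeR and 5.4e-10 with DESeq2, both run on recovered reads. It exceeded 0.05 when any of the 6 libraries was left out (0.0509 to 0.181, log2 fold change -1.10 to -0.93) and without the mean-variance trend (0.121), while the groups did not overlap. The skeletal muscle markers were lower in the same libraries, by a median log2 fold change of -1.95 with 10 of 10 lower and 1 of them, Myh7, past the test. Fibroblast and preadipocyte markers were lower in 7 of 7 genes, and their sums did not overlap (23471 to 26263 in WT Cold and 16941 to 21869 in GCN2 KO Cold). Brown adipocyte sums were higher without overlap (433776 to 464748 and 536832 to 558445), and Schwann cell sums overlapped (3046 to 4118 and 2986 to 3708). Of 5 tested Schwann cell markers, 4 were lower and 1 of these was called. The part of these markers in the Dusp4 difference was not tested.

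Dusp5 (ENSMUSG00000034765; GRCm38 chromosome 19, 53529109 to 53542431, plus strand) encodes a nuclear phosphatase selective for ERK and had the fewest reads of the members, 67 to 148 per library. It had 70.4, 116 and 62.2 normalised read counts in WT RT, 95.1, 147 and 71.5 in WT Cold, and 97.1, 82.6 and 97.1 in GCN2 KO Cold. The 3 groups overlapped throughout. The log2 fold change was 0.32 in WT Cold against WT RT, with a 95% confidence interval from -0.45 to 1.09, so a rise of just under the size seen in Dusp6 was not told from none at this depth and spread. The value was 0.04 without WT Cold library B, 0.14 without WT RT library C, 0.56 without WT Cold library C and 0.59 without WT RT library B. An antisense gene, AC137853.2, overlaps its exons.

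**Figure D2:**
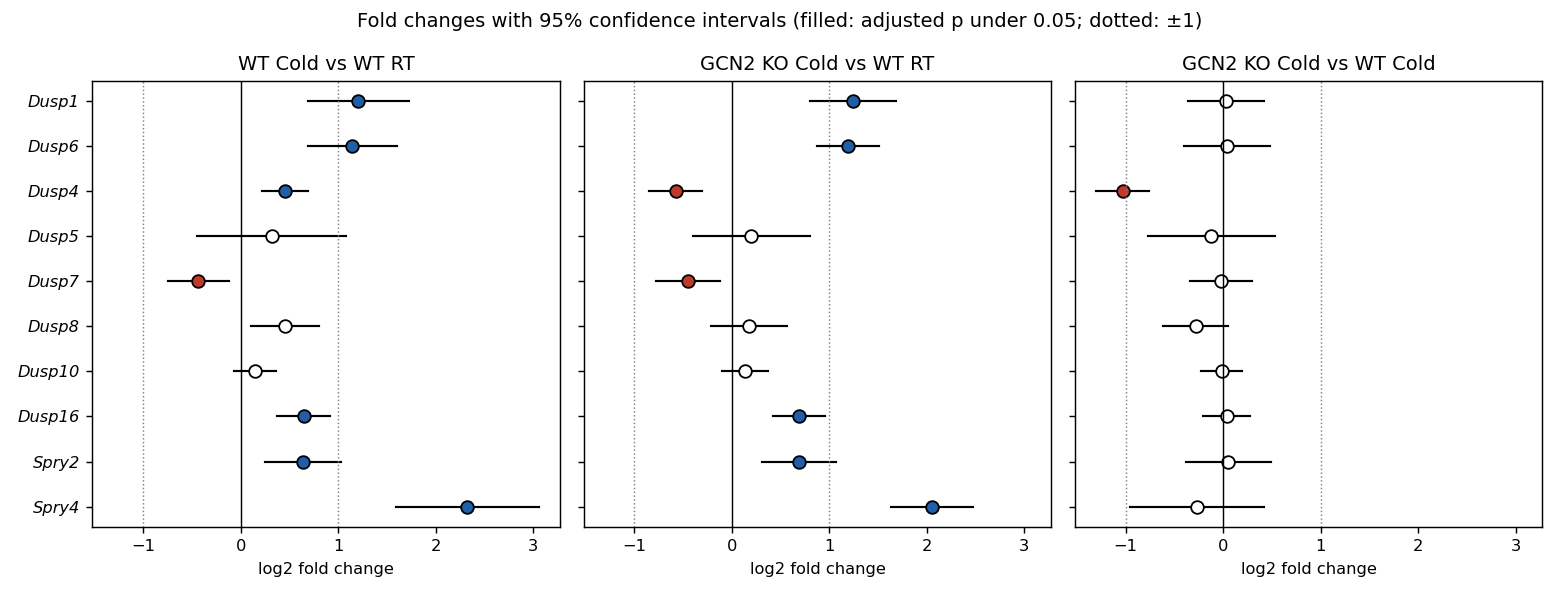
Log2 fold change (x axis) of each of the 10 genes (y axis) with its 95% confidence interval from limma, with 3 libraries per group, for both cold groups against WT RT (left and middle) and for GCN2 KO Cold against WT Cold (right). Filled points have an adjusted p under 0.05 (blue higher, red lower), and dotted lines mark ±1. Both comparisons with WT RT share the WT RT libraries, and between the cold groups Dusp4 (-1.03) is the filled point.

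Dusp6 and Dusp7 encode the cytoplasmic phosphatases of ERK and moved in opposite directions. Dusp6 (ENSMUSG00000019960; GRCm38 chromosome 10, 99263231 to 99267489, plus strand), whose product is MKP-3, had 1262, 1483 and 1053 normalised read counts in WT RT, 3579, 2863 and 2108 in WT Cold, and 2724, 2625 and 3290 in GCN2 KO Cold. All cold libraries were above all WT RT libraries. Dusp6 had a log2 fold change of 1.15 ± 0.20 (SE, n = 3 per group) in WT Cold against WT RT, 1.19 ± 0.14 in GCN2 KO Cold against WT RT and 0.04 ± 0.19 between the cold groups. Without WT Cold library A, the rise in WT Cold was 0.97 and no longer past the fold threshold.

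Dusp7 (ENSMUSG00000053716; GRCm38 chromosome 9, 106368632 to 106375724, plus strand) had 501, 434 and 570 normalised read counts in WT RT, 386, 398 and 329 in WT Cold, and 385, 398 and 315 in GCN2 KO Cold. Every WT RT library was above every cold library. Dusp7 had a log2 fold change of -0.43 ± 0.14 (SE, n = 3 per group) in WT Cold against WT RT and -0.45 ± 0.14 in GCN2 KO Cold against WT RT, with limma adjusted p-values of 0.0487 and 0.0398. The first of these values exceeded 0.05 in 5 of 6 fits that left out a library (all but the one without WT RT library B), reaching 0.147 without WT RT library C. The second exceeded it in 4 of 6, without GCN2 KO Cold library A or C or WT RT library A or C, reaching 0.135.

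Dusp8, Dusp10 and Dusp16 encode phosphatases that prefer JNK and p38, and Dusp16 was the member of the 3 that rose. Dusp16 (ENSMUSG00000030203; GRCm38 chromosome 6, 134715468 to 134792625, minus strand) had 361, 396 and 446 normalised read counts in WT RT, 635, 578 and 675 in WT Cold, and 665, 677 and 592 in GCN2 KO Cold. The cold libraries were all above the WT RT libraries. Dusp16 had a log2 fold change against WT RT of 0.65 ± 0.12 (SE, n = 3 per group) for WT Cold and 0.69 ± 0.12 for GCN2 KO Cold.

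Dusp8 (ENSMUSG00000037887; GRCm38 chromosome 7, 142079490 to 142095843, minus strand) had 196, 153 and 154 normalised read counts in WT RT, 216, 237 and 234 in WT Cold, and 212, 166 and 188 in GCN2 KO Cold. WT Cold lay above both other groups without overlap. The log2 fold change was 0.45 ± 0.15 (SE, n = 3 per group) in WT Cold against WT RT, with a limma adjusted p of 0.0572. The adjusted p was 0.0615 with DESeq2 and 0.0652 with edgeR. With limma it reached up to 0.154 when a library was left out. It was 0.0424 without WT RT library A and 0.047 when genes with a mean normalized value under 50 were left out. Between the cold groups the log2 fold change was -0.28 ± 0.14. Of the 10 members, Dusp4 and Dusp8 were the 2 whose GCN2 KO Cold libraries were all below the WT Cold libraries, against 10.6% of all genes. The non-coding gene Gm32786 overlaps exons of Dusp8 on the opposite strand.

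Dusp10 (ENSMUSG00000039384; GRCm38 chromosome 1, 184013302 to 184075636, plus strand) had 586, 692 and 616 normalised read counts in WT RT, 715, 703 and 683 in WT Cold, and 656, 677 and 747 in GCN2 KO Cold. The 3 groups overlapped. The 95% confidence interval of the log2 fold change in WT Cold against WT RT ran from -0.07 to 0.37, the narrowest of the 10 members in this comparison.

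Spry4 (ENSMUSG00000024427; GRCm38 chromosome 18, 38586247 to 38601415, minus strand), an inhibitor of receptor tyrosine kinase signalling to ERK, had the largest fold change of the members. It had 177, 291 and 234 normalised read counts in WT RT, 1451, 1539 and 686 in WT Cold, and 904, 876 and 1100 in GCN2 KO Cold. Every cold library was above every WT RT library, and WT Cold library C stood below the other cold libraries. Spry4 had a log2 fold change of 2.32 ± 0.32 (SE, n = 3 per group) in WT Cold against WT RT, 2.05 ± 0.18 in GCN2 KO Cold against WT RT and -0.27 ± 0.29 between the cold groups. With library C, the SD of WT Cold was 469 around a mean of 1226, so the 95% confidence interval of the difference between the cold groups spanned -0.96 to 0.42. That difference was -0.65 without WT Cold library C (limma adjusted p = 0.103), -0.11 without library A and -0.06 without library B of WT Cold.

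Spry2 (ENSMUSG00000022114; GRCm38 chromosome 14, 105891947 to 105896819, minus strand), the other Sprouty member, had 293, 300 and 235 normalised read counts in WT RT, 513, 431 and 353 in WT Cold, and 428, 375 and 543 in GCN2 KO Cold. Its cold libraries were above its WT RT libraries. Spry2 had a log2 fold change against WT RT of 0.64 ± 0.17 (SE, n = 3 per group) for WT Cold and 0.69 ± 0.17 for GCN2 KO Cold. With library totals in place of size factors the values were 0.55 and 0.49, with limma adjusted p-values of 0.0667 and 0.0638. In WT Cold the adjusted p was 0.0267 with all libraries and exceeded 0.05 in 5 of 6 fits that left out a library (0.052 to 0.0847), all but the one without WT Cold library C.

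GCN2 KO Cold was also compared with WT RT, a comparison that changes both genotype and temperature and shares its WT RT libraries with the comparison above. Dusp1, Dusp6 and Spry4 were the 3 members called, all higher, where 3.01% of 16560 genes were called higher. At an adjusted p under 0.05 alone, 5 members were higher (also Dusp16 and Spry2) and 2 lower (Dusp4 and Dusp7), against 16.4% and 17.8% of all genes. The same 5 and 2 members did not overlap between the groups, against 23.8% and 25.4% of all genes. The members' median log2 fold change was 0.44, and that of all genes was 0.009.

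Between the cold groups, the other 9 members had log2 fold changes from -0.28 (Dusp8) to 0.05 (Spry2), and none of them passed the test with limma, DESeq2 or edgeR or had an unadjusted limma p under 0.05 (0 of 9, where 2500 of all 16312 genes had one). The 95% confidence intervals were -0.36 to 0.42 for Dusp1, -0.40 to 0.48 for Dusp6, -0.38 to 0.49 for Spry2, -0.34 to 0.30 for Dusp7 and -0.21 to 0.28 for Dusp16. The interval was -0.23 to 0.20 for Dusp10, and the wider one of Dusp5 ran from -0.77 to 0.53. A difference of the size of that in Dusp4 lies outside each of these intervals. When libraries were scaled by their totals, the small differences of Dusp1, Dusp6, Dusp16 and Spry2 had the opposite sign. The members' median was -0.02 and that of all genes was -0.003.

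Levels of different genes were compared per kb of exon. In WT RT, Dusp1 (519 ± 158 normalised read counts per kb, SD, n = 3), Dusp4 (454 ± 44.6) and Dusp6 (404 ± 68.7) were the most abundant, and their ranges overlapped. Dusp10 (208 ± 17.9), Dusp7 (149 ± 20.2) and Spry2 (132 ± 17.1) followed, with Dusp10 apart from its neighbours and the other pair overlapping. Dusp16 (51.4 ± 5.5), Spry4 (49.2 ± 12.1), Dusp8 (34.4 ± 5.0) and Dusp5 (33.6 ± 11.8) were the least abundant, each overlapping the next. In WT Cold, Dusp1 (1187 ± 241 per kb) and Dusp6 (910 ± 235) overlapped and stood above Dusp4 (622 ± 50.6), and Spry4 (258 ± 98.7) had moved from rank 8 to rank 4, overlapping Dusp10 (230.3 ± 5.3). In GCN2 KO Cold, Dusp4 (305 ± 37.0 per kb) kept rank 3, below Dusp6 (919 ± 115) and above Dusp10 (228 ± 15.5) without overlap with either.

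Among libraries of the same group, 5 members shared an order of libraries, a pattern that was noticed after the values were seen. Dusp1, Dusp6, Dusp10, Spry2 and Spry4 were each highest in WT RT library B, lowest in WT Cold library C and highest in GCN2 KO Cold library C. That order was held by 5 of 10 members and by 605 of 16006 genes listed in all 3 tables (3.78%), and genes that share libraries are not independent. WT Cold library C was 0.75 below its group mean on the log2 scale for Spry4, 0.40 below for Dusp6 and 0.36 below for Dusp1. It was 0.27 below for Spry2 and only 0.04 below for Dusp10, whose order in WT Cold rests on small differences. Dusp5 and Dusp7, outside the 5 genes, were also lowest in that library, by 0.48 and 0.17, so that 7 of 10 members were lowest there, and Dusp5 was highest in WT RT library B as well. Dusp4 and Dusp16 were instead highest in that library, by 0.10 each.

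**Figure D3:**
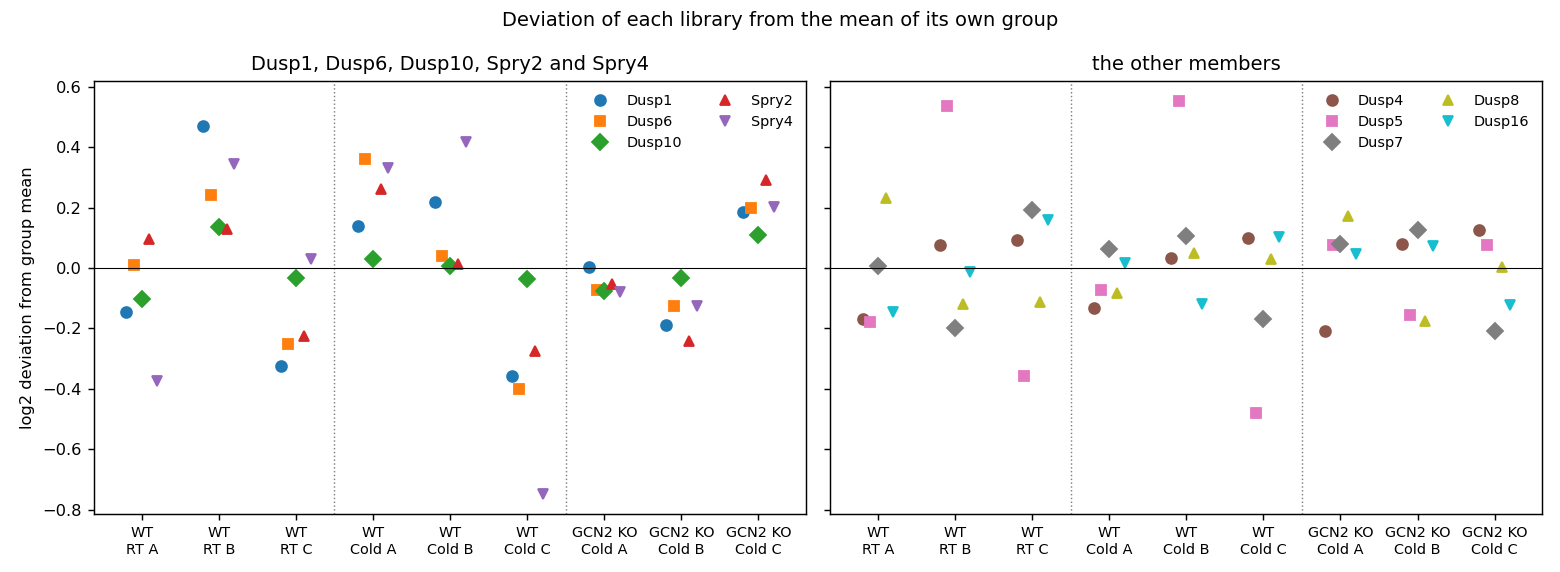
Log2 deviation of each library from the mean of its own group (y axis) for the 5 genes that shared an order of libraries (left) and for the other 5 genes (right), over the 9 libraries (x axis, groups parted by dotted lines). On the left the points of WT Cold library C all lie below 0 and reach -0.75 for Spry4, while Dusp4 lies at 0.10 in that library on the right.

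Of 7 further MKP, Sprouty and Spred genes, 6 were listed (Spry3 was not), and 3 rose in WT Cold against WT RT (Spry1, Spred1 and Spred2), where 13.6% of all genes did. Spry1, the Sprouty gene outside the members, had 331, 257 and 420 normalised read counts in WT RT and 612, 651 and 619 in WT Cold, without overlap. Its log2 fold change was 0.92 ± 0.17 (SE, n = 3 per group), and the antisense gene Gm42922 overlaps its exons. Spred2 and Spred1, which encode membrane-bound inhibitors of Ras-ERK signalling, had log2 fold changes of 0.93 ± 0.13 and 0.44 ± 0.14, and the value of Spred1 did not pass with library totals (0.35, limma adjusted p = 0.118). Spred1 also did not pass when WT Cold library A or B or WT RT library A or C was left out (limma adjusted p from 0.111 to 0.142). Dusp2 (0.13 ± 0.37), Dusp9 (-0.58 ± 0.52) and Spred3 (-0.32 ± 0.32) had 8 to 76 reads per library in these groups and did not pass. In GCN2 KO Cold against WT RT the log2 fold changes were 0.76 for Spry1, 0.80 for Spred2 and 0.40 for Spred1 (0.20 with library totals, limma adjusted p = 0.251). In the same comparison Dusp9 was at -1.31 ± 0.53 (SE, n = 3 per group; limma adjusted p = 0.0892, and -1.81 with 0.0306 without WT RT library A), Dusp2 at 0.15 and Spred3 at 0.07. Between the cold groups 0 of the 5 listed passed with limma, DESeq2 or edgeR or had an unadjusted limma p under 0.05 (2500 of all 16312 genes had one), with values of -0.16 for Spry1, -0.13 for Spred2, -0.04 for Spred1, 0.02 for Dusp2 and 0.39 for Spred3.

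Genes of the pathways that these inhibitors act on were set beside them in WT Cold against WT RT, from lists drawn up with earlier results of these data known. Of all genes, 13.6% were higher and 14.1% lower at an adjusted p under 0.05, and counts of 2 of 13 or 3 of 20 are close to these shares. The atypical dual-specificity phosphatases, which lack the MAPK-docking domain, had 4 of 13 genes higher and 1 lower at an adjusted p under 0.05. Dusp15 had the largest change among them, from 11.1 to 15.8 normalised read counts in WT RT to 62.1 to 142 in WT Cold (log2 fold change 2.61 ± 0.35, SE, n = 3 per group, and 1.46 in the fit of all 9 libraries on log2(CPM + 1)). Of the 13 MAP kinases 2 rose and 1 fell, among them Mapk6, with a log2 fold change of 0.36, and Mapk9, which encodes JNK2, with -0.60. Of 20 tested genes of the ERK cascade 1 rose (Braf, 0.40) and 3 fell (Grb2, Gab1 and Frs3). Of 17 genes of the JNK and p38 cascade 5 rose and 1 fell (Map3k4, -0.81 ± 0.14). Map3k6, a stress-activated upstream kinase, had a log2 fold change of 1.82 ± 0.20, Mapkapk2, a substrate kinase of p38, 1.19 ± 0.13, and Map2k3, which phosphorylates p38, 0.75 ± 0.12.

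Target genes of the pathways were read against the same 13.6% of all genes that were higher at an adjusted p under 0.05. Of 10 CREB output genes 6 rose, with a list median of 1.01 on the log2 scale, led by Dio2 (3.63 ± 0.24, SE, n = 3 per group), which activates thyroid hormone, Nr4a3 (3.19 ± 0.33), an orphan nuclear receptor, and Ppargc1a (2.70 ± 0.26), the coactivator of mitochondrial biogenesis. Of 9 tested SRF and immediate early genes 5 rose, with a median of 0.43, including Maff (1.42 ± 0.18) and Fosb (1.29 ± 0.30). Fosb did not pass without WT Cold library B or WT RT library A (limma adjusted p = 0.0637 and 0.0536), and was at 0.86 in the fit of all 9 libraries on log2(CPM + 1). Of 14 ERK output genes 2 rose, Fosl1 (0.87 ± 0.21) and Epha2 (0.80 ± 0.15), and the median was 0.23. The 3 list medians stood beside one of 0.003 for all genes.

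Of 24 tested receptors that feed these pathways, 4 rose and 3 fell, close to the 13.6% and 14.1% of all genes. Adrb3, the main adrenergic receptor of brown adipocytes, had a log2 fold change of -1.13 ± 0.14 (SE, n = 3 per group) and Klb, the co-receptor of FGF21, -1.04 ± 0.13. Adrb3 went from 6846 to 9642 normalised read counts in WT RT to 3317 to 3974 in WT Cold. Of 25 tested receptor tyrosine kinase ligands 4 rose and 4 fell, also close to these shares, and Fgf9 (1.84 ± 0.44), Fgf18 (-1.38 ± 0.35) and Hgf (-1.09 ± 0.31) were called. None of these 3 ligands passed the test in every fit that left out a library, with the limma adjusted p reaching 0.0725 for Fgf9 without WT Cold library B, 0.0762 for Fgf18 without WT RT library A and 0.106 for Hgf without WT RT library C. In the fit of all 9 libraries on log2(CPM + 1), the values of Fgf18 and Hgf were -0.53 and -0.71, under the fold threshold. Between the cold groups, 0 of the 150 tested genes in these 10 lists passed the test with limma and 0 with edgeR, and 2 (Dusp13 and Jun) passed with DESeq2, while 25 had an unadjusted limma p under 0.05, as did 2500 of all 16312 genes. Their list medians lay between -0.31 (SRF and immediate early genes) and 0.03 (atypical dual-specificity phosphatases).

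**Figure D4:**
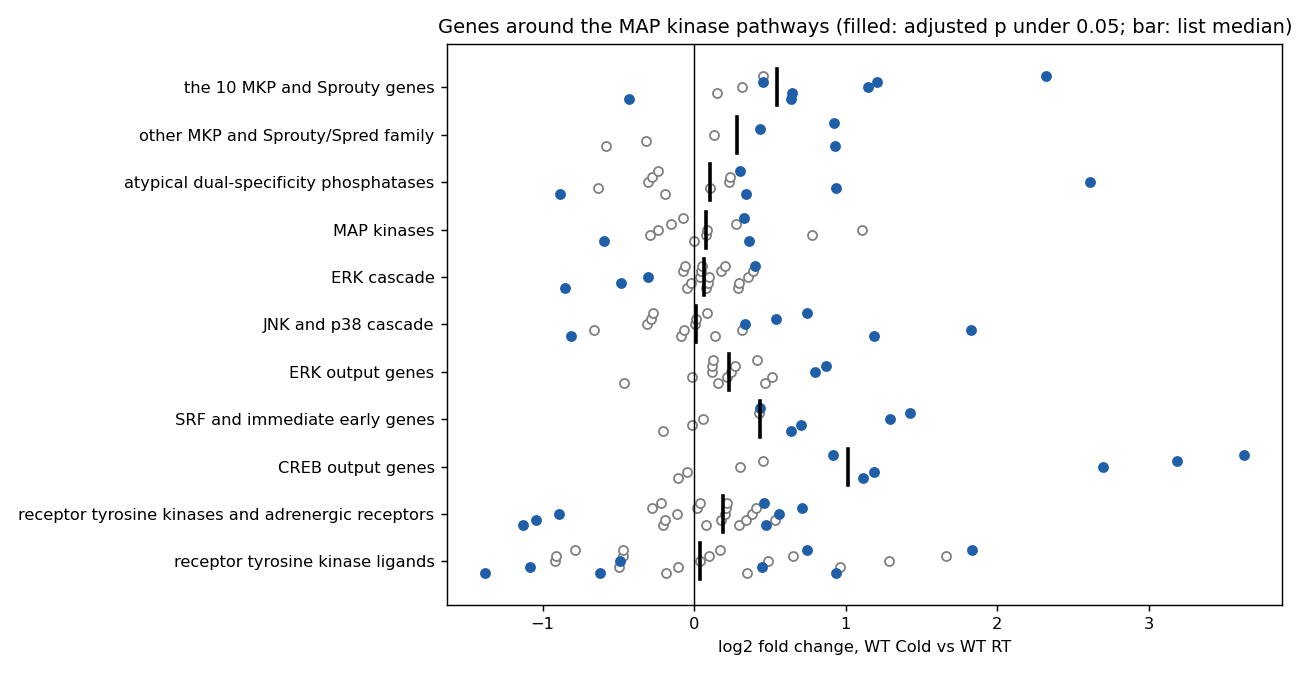
Log2 fold change in WT Cold vs WT RT (x axis) of each tested gene in the 10 members and in 10 lists around the MAP kinase pathways (y axis), with filled points at a limma adjusted p under 0.05 and a black bar at the list median. The member median is 0.54, the CREB output genes have a median of 1.01, and the ERK output genes have a median of 0.23.

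The genes whose levels over the 9 libraries were most like those of Dusp4 were Wbp11 (Pearson r = 0.977), Sgcb (0.973) and Map4k4 (0.962), among 14041 genes with a mean CPM (reads scaled to a common library total) of at least 1. Those most like Spry4 were Rab35 (r = 0.990), Tatdn2 (0.990) and Map2k3 (0.988). The correlations are of log2(CPM + 1) over 9 libraries that fall into 3 groups and share their depth across genes, and are given as a description.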

How the data were processed

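RNA of BAT from 9 mice was sequenced, and the authors deposited 1 table for each of 3 comparisons. Its deposited signal is the number of reads of a gene in a library over the DESeq2 size factor of that library, computed table by table. Deposited log2 fold changes and p-values of the authors' own comparisons were left unused. Per the submitters' processing notes, reads were trimmed with Trimmomatic 0.36, aligned with STAR 2.5.2b and counted with featureCounts (Subread 1.5.2), with GRCm39 as the build, and compared with DESeq2. A strand setting is not given in the sources used here.

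Dividing a library's deposited signal by its smallest step gave whole reads for 100% of values at a relative tolerance of 1e-06. Genes had at least 61 reads summed over the 6 libraries of a table, so counting error limits low genes and the spread between libraries limits the rest. Column codes were assigned to groups, not to individual mice.

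Groups were compared within each table with limma 3.58.1 (R 4.3.3) on log2(normalised count + 1), using a trended prior variance, and p-values were adjusted over all genes of the table by the Benjamini-Hochberg method. This scale understates the change of low genes. Called genes had an adjusted p under 0.05 together with a log2 fold change beyond 1 in size. "Rose" and "fell" mean an adjusted p under 0.05. DESeq2 1.42.0 and edgeR 4.0.16 were run on the recovered reads. The procedure was tested on simulated data. Alternatives were other scalings, pseudocounts, filters and fits, and each library left out in turn.

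The members and gene lists were chosen with earlier results of these data known. All members, the other MKP, Sprouty and Spred genes and Eif2ak4 were named, with up to 4 called genes of the largest absolute fold change from each other list in WT Cold against WT RT. Mapk6, Mapk9, Braf, Grb2, Gab1, Frs3, Map2k3, Map3k4, Fosl1, Epha2, Dusp13, Jun, Myh7, Ucp1, Plin1 and Adipoq fall outside that rule and were named after their values were seen. Some items are not reported here. Positions and exon lengths are from GENCODE M21 on GRCm38, and promoter windows are from RefSeq on GRCm38.p6. The likeness of genes was measured by Pearson's r over 9 libraries, for Dusp4 and for the members with the largest fold change in WT Cold against WT RT and between the cold groups.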

Additional observations from a re-analysis of the deposited data

How the results depend on the processing

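The 3 members called in WT Cold against WT RT (Dusp1, Dusp6 and Spry4) were called with DESeq2, edgeR, library totals, pseudocounts of 0.5 and 5, a filter at a mean of 50, no trend and all 9 libraries in a fit on log2(CPM + 1), and the count was 2 to 3 with a library left out. In GCN2 KO Cold against WT RT the count was 3 with any library left out, and 2 with library totals or with all 9 libraries, where Dusp6 was at 0.99 and 0.97. With no fold change threshold, 7 members passed in each of these comparisons. Between the cold groups, the call of Dusp4 was lost (count of 0) without the mean-variance trend and with any of the 6 libraries left out (0 in each). It was kept under the other alternatives run. Over all genes of that comparison, the calls were 10 higher and 32 lower with limma, 26 and 183 with DESeq2, 7 and 145 with all 9 libraries, 5 and 1 without the trend, and 3 to 10 higher and 0 to 12 lower with a library left out. In WT Cold against WT RT they were 498 and 859, and 275 and 583 with all 9 libraries. In GCN2 KO Cold against WT RT they were 499 and 1255, 326 and 1769 with library totals, and 208 and 1007 with all 9 libraries. Library totals moved the median log2 fold change of all genes to -0.08, -0.12 and -0.19 in WT Cold against WT RT, GCN2 KO Cold against WT Cold and GCN2 KO Cold against WT RT. The log2 fold changes that turned sign were all of genes that did not pass the test. With library totals and with all 9 libraries in the fit, respectively, they were -0.085 and -0.085 for Dusp1, -0.081 and -0.077 for Dusp16, -0.091 and -0.017 for Dusp2, -0.076 and -0.076 for Dusp6 and -0.065 and -0.061 for Spry2 between the cold groups. In GCN2 KO Cold against WT RT they were -0.068 and -0.065 for Dusp10, -0.043 and -0.0039 for Dusp2, -0.0015 and -0.011 for Dusp5, -0.030 and -0.026 for Dusp8 and -0.13 and -0.091 for Spred3. With a library left out, values between the cold groups spanned -0.15 to 0.14 for Dusp1, -0.073 to 0.021 for Dusp10, -0.022 to 0.094 for Dusp16, -0.38 to 0.31 for Dusp2, -0.36 to 0.16 for Dusp5, -0.16 to 0.22 for Dusp6, -0.11 to 0.079 for Dusp7, -0.13 to 0.035 for Spred1 and -0.097 to 0.18 for Spry2. Those in GCN2 KO Cold against WT RT spanned -0.25 to 0.45 for Dusp2 and -0.18 to 0.37 for Spred3, and Dusp2 in WT Cold against WT RT spanned -0.18 to 0.31. The cause of these changes was not tested.

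No paired analysis was possible because the library codes of the tables carry none of the replicate numbers that the labels give. Depth limits Dusp2, Dusp5, Dusp9 and Spred3 most.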
